A study of Mus musculus with 10 samples.

Results

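The solute carriers of family 25 are mostly proteins that move nucleotides, phosphate, substrates and cofactors across the inner mitochondrial membrane. Their genes were taken from both deposited tables of the study as every gene whose symbol begins with Slc25a, which gave 44 of the 20983 genes listed in either table. Of these, 34 were listed for embryonic hearts and 42 for adult apex, with 32 in both tables, 2 listed at E15.5 alone and 10 in the adult alone. A gene was tested where it reached a value of at least 1 in as many samples as a group holds, as 33 members did at E15.5 and 39 members in the adult.

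RNA sequencing of heart tissue set C57BL/6 mice of an embryonic and an adult Larp7 knockout model against controls of that strain. The Larp7 protein binds and stabilises the noncoding RNA 7SK. Whole embryonic hearts at E15.5 gave 3 samples labelled Larp7-/- and 3 labelled Larp7+/+. Heart apex of mice aged 4 months gave 2 samples from mCKO mice, with the genotype Myh6Cre;Larp7f/f, and 2 from CTR mice, with the genotype Larp7f/f. Both adult groups carry the floxed alleles, and Cre, driven by a promoter active in cardiomyocytes, is present in the mCKO group alone, so that effects of Cre and of the deletion cannot be told apart. The series title names heart failure and mitochondrial biogenesis as the subject, and most members are genes of the mitochondrial membrane. The sources used here do not state whether each sample is from its own animal, so p-values measure the spread between these samples, which may be technical.

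Mitochondrial carriers share a fold built from tandem repeats, and most of them exchange 1 solute for another. In heart muscle the ADP/ATP carriers and the phosphate carrier supply ATP synthase and export ATP to the myofibrils. The aspartate-glutamate and oxoglutarate-malate carriers are the membrane steps of the malate-aspartate shuttle, which brings reducing equivalents from the cytosol into the matrix, and the carnitine-acylcarnitine carrier brings in fatty acids for oxidation.

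The deposited per-million values are rounded to whole numbers, and samples sum to 998498 to 1001508 (E15.5) and 999063 to 1000423 (adult), so that sequencing depth is unknown. In every member the values of same-numbered Larp7-/- and Larp7+/+ samples, and of same-numbered mCKO and CTR samples, add to a fixed total within 2. The spreads of both groups of a gene are therefore mirror images, and the replicate number was kept as a block. Rounding aside, groups do not overlap wherever all same-numbered differences share a sign, so lack of overlap says little more than that. Fold changes are on the log2(value + 1) scale and are given for Larp7-/- over Larp7+/+ or for mCKO over CTR, tested with limma over all genes of a table with Benjamini-Hochberg adjustment at 0.05. Across the tested genes of a table the log2 changes had a median of 0.11 (E15.5) and 0.08 (adult). Values of different genes are not compared as levels, because the sources used here do not say whether they are corrected for transcript length. Sums, shares and proportions over genes are given to compare groups, and their size depends on that unknown correction.

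Larp7 lies on chromosome 3 from 127536714 to 127553349 on the minus strand of mm10. It had values of 45, 54 and 40 in Larp7-/- hearts, against 96, 88 and 103 in Larp7+/+ hearts. All Larp7-/- samples were below all Larp7+/+ samples, and the gene fell (log2 change -1.04, SE 0.17, limma adjusted p = 0.00159). That call was lost at the same log2 change with no rounding variance (limma adjusted p = 0.473) and with a mean of at least 10 required (limma adjusted p = 0.332). In the adult apex Larp7 had values of 26 and 24 in mCKO samples, against 26 and 28 in CTR samples. These groups overlapped (log2 change -0.11, SE 0.17, limma adjusted p = 0.933), so that Larp7 RNA does not check the mCKO label, and the sources used here do not name the floxed exons.

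Of the carriers 1 passed the test in the adult and 0 at E15.5, and log2 changes of both signs were found. At E15.5, 0 of the 33 tested members passed limma at an adjusted p under 0.05, where 0.632% of all tested genes were called (0.529% higher and 0.103% lower). An unadjusted p under 0.05 was found in 3 of these 33 members, and in 1893 of all 13609 tested genes. The authors' deposited table gives 1 member at E15.5 with an adjusted p under 0.05, Slc25a4. Of the 33, 16 had a positive and 16 a negative log2 change, where 33.1% of all tested genes were negative, and the median was 0.00, against 0.11 for all tested genes. In the adult, 1 of the 39 tested members was called, Slc25a34, which fell, where 3.29% of all tested genes were called (2.34% higher and 0.95% lower). An unadjusted p under 0.05 was found in 5 of the 39 adult members, and in 1833 of all 14835 tested genes. There were 21 positive and 15 negative changes among the 39, where 28.6% of all tested genes were negative, with a median of 0.04, against 0.08 for all tested genes. With values rescaled by median-of-ratios the negative changes numbered 21 of 33 embryonic and 23 of 39 adult members, against 45.3% and 47.3% of all tested genes.

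**Figure D1:**
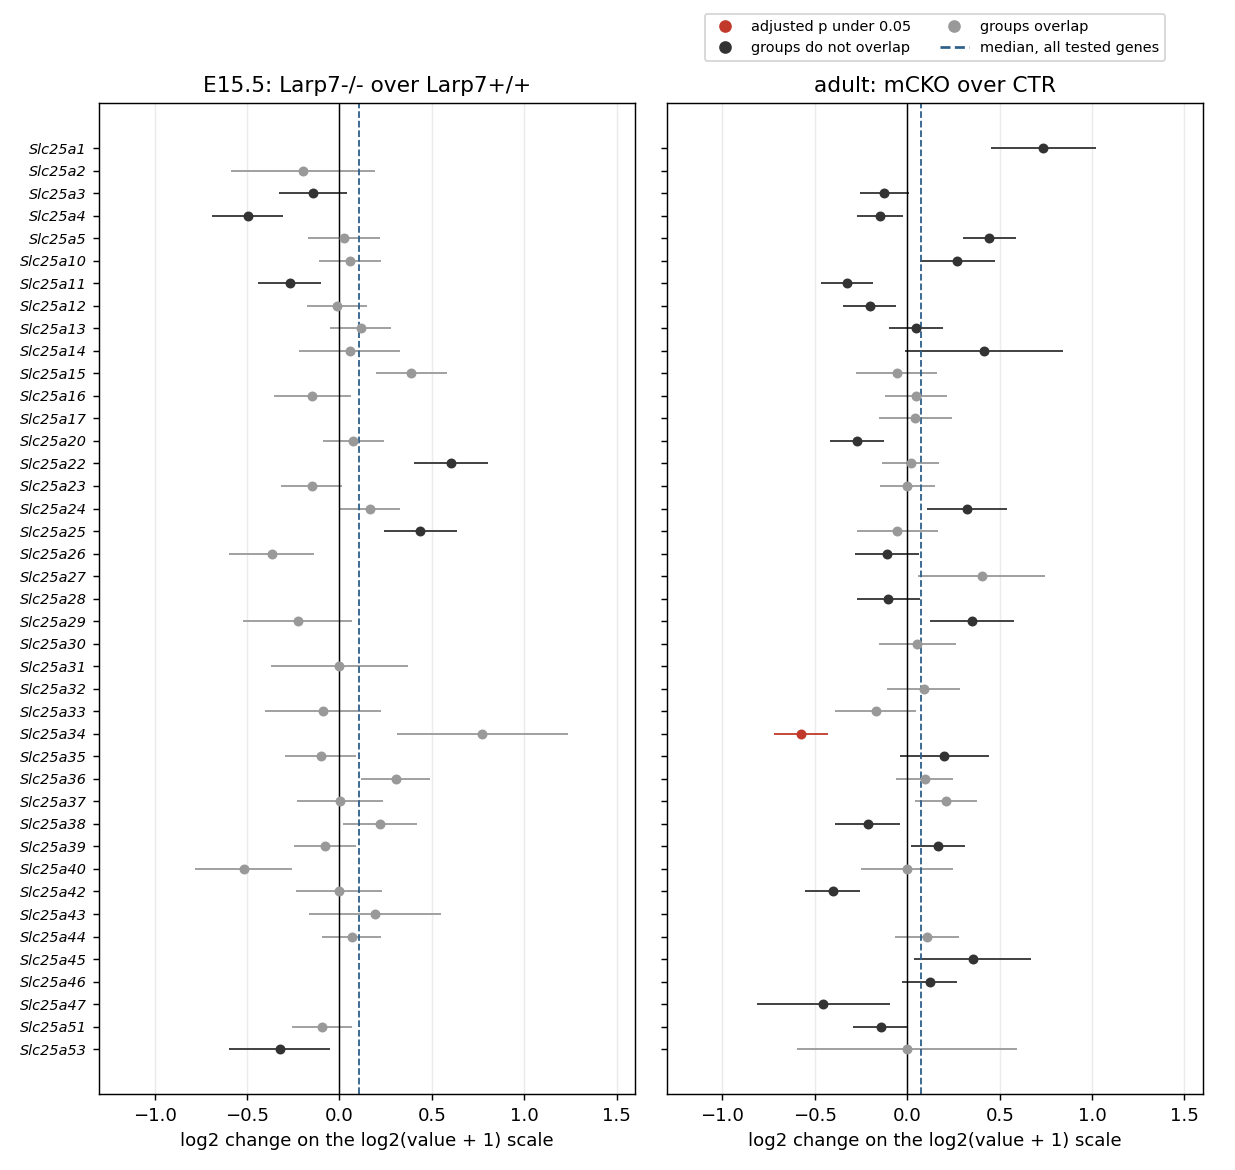
Log2 changes of the tested Slc25a genes named in the panels (points) with their SE (bars), for Larp7-/- over Larp7+/+ hearts at E15.5 on the left and mCKO over CTR apex on the right, with the dashed line at the median of all tested genes. Slc25a34 in the adult is the called member, and Slc25a3, Slc25a4 and Slc25a11 lie left of 0 without overlap between groups in both panels.

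Slc25a3, Slc25a4 and Slc25a11, the phosphate carrier, the muscle ADP/ATP carrier and the oxoglutarate-malate carrier, had lower values without overlap in both models. These were 3 of the 30 members tested in both tables, against 2.65% of all genes tested in both, and 3 of the 10 members with a mean of at least 50 in both, against 7.82% of such genes. At E15.5 the groups did not overlap in 2 members that were higher in Larp7-/- hearts, Slc25a22 and Slc25a25, and in 4 that were lower, Slc25a3, Slc25a4, Slc25a11 and Slc25a53, against 19.3% and 8.75% of all tested genes. In the adult 12 members were higher and 12 lower in mCKO samples without overlap, against 29.3% and 12.8% of all tested genes. Among the 13 adult members with a mean of at least 50, 8 were lower in mCKO samples without overlap, against 26.7% of all tested genes of that level, and 4 were higher, against 35.6%. The 8 were Slc25a3, Slc25a4, Slc25a11, Slc25a12, Slc25a20, Slc25a34, Slc25a42 and Slc25a51. At E15.5, 3 of the 15 members of that level were lower without overlap, against 15.7% of such genes, and 0 were higher, against 24.5%. No member was higher without overlap in both, against 8.5% of all genes tested in both and 8.27% of those with a mean of at least 50 in both. None separated in opposite directions, against 5.52% and 10.8%.

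The summed values of all members separated by group in the adult and overlapped at E15.5. They were 6784, 7248 and 6557 in Larp7-/- hearts, against 7439, 6980 and 7670 in Larp7+/+ hearts. The overlap came from sample 2 of Larp7-/-, which was above sample 2 of Larp7+/+. In the adult the sums were 8394 and 8388 in mCKO samples, against 9159 and 9157 in CTR samples. Slc25a3, Slc25a4 and Slc25a5 together made up between 77.2% and 77.4% of the sum in mCKO samples and between 77.0% and 77.1% in CTR samples. At E15.5 they made up 67.4%, 66.0% and 65.6% in Larp7-/- hearts, against 67.9%, 69.4% and 69.4% in Larp7+/+ hearts, so that this share was lower without overlap in Larp7-/- hearts and higher by a small margin in mCKO samples. In the adult the sums without Slc25a4 and Slc25a5 were 3494 and 3546 in mCKO samples, against 3833 and 3893 in CTR samples.

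Several cell type markers moved with the same groups, and their part in the results on the carriers was not tested. In these bulk samples fewer cells of a type and less RNA per cell cannot be told apart. Of 10 cardiomyocyte markers chosen, 5 were measured at E15.5. All 5 were lower without overlap, against 15.7% of all tested genes with a mean of at least 50. Their sums were 12848 to 16189 in Larp7-/- hearts and 17596 to 20938 in Larp7+/+ hearts. Of these markers 0 was called (limma, 2 with an unadjusted p under 0.05, as in 1893 of all 13609 tested genes). Endothelial markers were positive in 7 of 9 (1483 to 1575 in Larp7-/-, 1352 to 1447 in Larp7+/+) and fibroblast markers in 4 of 5 (4561 to 5476 in Larp7-/-, 3683 to 4601 in Larp7+/+). Erythroid markers were positive in 11 of 13, but their sums overlapped. In rising order these were 4879, 4888 and 9787 in Larp7-/- hearts, against 3165, 7758 and 7766 in Larp7+/+ hearts. The highest Larp7-/- sum and the lowest Larp7+/+ sum were both those of sample 3. Stratified epithelium markers were positive in 5 of 5, and their highest sum, 215, was in sample 1 of Larp7-/-, against 59 and 61 in the other Larp7-/- samples and 57 to 96 in Larp7+/+ samples. Macrophage markers (3 of 6 positive), brown adipocyte markers (2 of 2), smooth muscle and pericyte markers (1 of 2) and Fabp4, the adipocyte marker measured, completed the E15.5 lists, and Pdgfra was called as higher and Rgs5 as lower, calls that were lost without either number 1 sample (limma adjusted p = 0.16 for Pdgfra and 0.0867 or 0.0854 for Rgs5) and for Pdgfra also without either number 3 sample (limma adjusted p = 0.0819 or 0.082).

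In the adult 7 of 10 cardiomyocyte markers had a negative change, with sums of 66637 to 67069 in mCKO samples and 70482 to 70913 in CTR samples, while Myh7, the slow myosin heavy chain of that list, rose. Fibroblast markers were positive in 7 of 8 (2270 to 2587 in mCKO, 1185 to 1500 in CTR), macrophage markers in 7 of 8 (507 to 522 in mCKO, 409 to 425 in CTR) and erythroid markers in 8 of 8 (1317 to 2917 in mCKO, 171 to 1514 in CTR). Adipocyte markers were positive in 6 of 6, with the defining Adipoq, Plin1 and Cidec between 0 and 2 in every sample. Endothelial markers were positive in 1 of 9, smooth muscle and pericyte markers in 2 of 7, brown adipocyte markers in 1 of 3 and stratified epithelium markers in 3 of 4. Of these lists Fcgr1 (9 and 7 in mCKO, 2 and 5 in CTR) and Krt18 (4 and 4 in mCKO, 1 and 0 in CTR) were also called as higher. Both lie below 10, where rounding limits the values. The calls of Myh7, Fcgr1 and Krt18 were lost without the replicate block (limma adjusted p = 0.118, 0.157 and 0.0741) and with no rounding variance (0.616, 0.62 and 0.591). Without either number 1 sample the log2 change was 0.93 for Myh7 and 0.42 for Fcgr1, against 1.47 and 1.08 with all samples.

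Promoter sequences of 4 members are shown, and that of Slc25a3, also lower in both models, is not. They are those of Slc25a4 and Slc25a11, which were lower in both models, Slc25a5, the paralog of Slc25a4 that was not, and Slc25a34, the called member. Each runs 5′ to 3′ from 250 bases before to 50 after the transcription start given by RefSeq on GRCm38.p6, with capitals marking CCAAT boxes and, in Slc25a34, also a nuclear receptor hexamer, on either strand.
Slc25a4, chr8:46211013-46211312, minus strand: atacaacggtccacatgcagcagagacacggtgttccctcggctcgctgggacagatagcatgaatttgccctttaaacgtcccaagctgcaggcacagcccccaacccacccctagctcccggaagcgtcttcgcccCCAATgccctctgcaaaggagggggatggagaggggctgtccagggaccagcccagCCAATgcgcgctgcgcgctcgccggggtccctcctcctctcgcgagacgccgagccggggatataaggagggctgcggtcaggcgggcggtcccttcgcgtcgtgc
Slc25a11, chr11:70646990-70647289, minus strand: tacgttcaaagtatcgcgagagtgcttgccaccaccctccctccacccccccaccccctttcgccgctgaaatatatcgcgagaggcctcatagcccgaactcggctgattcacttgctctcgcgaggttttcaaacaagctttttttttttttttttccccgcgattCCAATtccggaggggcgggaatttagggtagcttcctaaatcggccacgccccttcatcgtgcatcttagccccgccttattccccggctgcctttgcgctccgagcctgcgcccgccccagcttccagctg
Slc25a5, chrX:36795347-36795646, plus strand: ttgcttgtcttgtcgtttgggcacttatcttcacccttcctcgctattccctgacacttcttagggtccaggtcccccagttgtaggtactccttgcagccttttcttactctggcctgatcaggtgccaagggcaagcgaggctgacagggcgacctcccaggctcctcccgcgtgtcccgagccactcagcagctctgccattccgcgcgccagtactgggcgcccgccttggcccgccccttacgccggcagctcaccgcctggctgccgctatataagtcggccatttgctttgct
Slc25a34, chr4:141623785-141624084, minus strand: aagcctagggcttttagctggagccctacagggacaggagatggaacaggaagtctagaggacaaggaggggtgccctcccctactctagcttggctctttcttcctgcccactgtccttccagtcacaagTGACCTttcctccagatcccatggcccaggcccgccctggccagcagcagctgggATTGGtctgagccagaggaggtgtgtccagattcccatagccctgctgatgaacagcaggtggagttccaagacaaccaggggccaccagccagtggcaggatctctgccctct
The Slc25a4 window held CCAAT with its first base at -112 and at -56 from the start, the Slc25a11 window at -82, and the Slc25a34 window the reverse complement of CCAAT at -64 and of AGGTCA at -119, while the Slc25a5 window held none of the motifs searched. Gene positions in this text come from another annotation, whose starts differ. By those positions the Slc25a11 window and both CCAAT matches of Slc25a4 lie inside the gene, and the Slc25a5 window ends before the gene.

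The same letters were searched on both strands in the 44 RefSeq windows of 34 members that had one and in all 32851 windows of that length. CCAAT stood in 50% of the members' windows and in 37.4% of all windows. It was found for 19 members, and Slc25a3 is not among them. Slc25a13, Slc25a22, Slc25a25 and Slc25a36 are among the 19 and were not lower without overlap in either model. A relation between motifs and changes was not tested. AGGTCA, a hexamer bound by many nuclear receptors, stood in 9.09% and 16.3%. TATAAA stood in 4.55% and 13.6%. TCAAGGTCA, the extended element of the estrogen-related receptors, which contains AGGTCA, stood in 0 of the members' windows and in 0.423% of all windows. These counts describe letters in a window, and windows of one gene can share bases.

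Of the ADP/ATP carriers 0 passed limma in either model. Slc25a4 encodes the isoform of heart and skeletal muscle and lies on chromosome 8 from 46206797 to 46211284 on the minus strand of mm10. Slc25a4 had values of 1213, 1121 and 911 in Larp7-/- hearts, against 1388, 1481 and 1691 in Larp7+/+ hearts. Every Larp7-/- sample was below every Larp7+/+ sample. Sample 3 was the lowest of Larp7-/- and sample 3 the highest of Larp7+/+, as the fixed totals require. The log2 change was -0.50 (SE 0.19, 95% interval -0.89 to -0.11) and did not pass limma over all genes (adjusted p = 0.233, unadjusted p = 0.0146). It passed when either number 2 sample was left out (log2 change -0.54, limma adjusted p = 0.0446 without that of Larp7-/- and 0.0402 without that of Larp7+/+). Without either number 3 sample the change was -0.30 (limma adjusted p = 0.839 without that of Larp7-/- and 0.826 without that of Larp7+/+). In the authors' deposited table Slc25a4 has a log2 fold change of -0.55 and an adjusted p of 0.0384, the lone member under 0.05 of the 11 with an adjusted p there. The measured cardiomyocyte markers were lower in the same samples, as given above, with log2 changes between -0.74 and -0.31.

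In the adult apex Slc25a4 had values of 4614 and 4592 in mCKO samples, against 5086 and 5110 in CTR samples. The groups did not overlap, and their difference (log2 change -0.15, SE 0.13) did not pass limma (adjusted p = 0.771). The authors' deposited table gives an unadjusted p of 0.0348 for it.

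Slc25a5 encodes the ADP/ATP carrier isoform of proliferating cells and many non-muscle tissues and lies on chromosome X from 36795651 to 36798807 on the plus strand. It had values of 2196, 2521 and 2245 in Larp7-/- hearts, against 2406, 2081 and 2358 in Larp7+/+ hearts. These groups overlapped (log2 change 0.02, SE 0.20, limma adjusted p = 1, 95% interval -0.37 to 0.42), and with median-of-ratios scaling the change was -0.04. In the adult Slc25a5 had values of 286 and 250 in mCKO samples, against 180 and 214 in CTR samples. Both mCKO samples were above both CTR samples, and the difference lay just outside the threshold (log2 change 0.44, SE 0.14, limma adjusted p = 0.0586, unadjusted p = 0.00206). It passed when a mean of at least 10 was required (limma adjusted p = 0.0304). The samples numbered 1 were the farther apart, and the change was 0.22 without either of them and 0.67 without either number 2 sample, values that allow no test. The annotation holds 1 pseudogene named for Slc25a5, and the sources used here do not say how shared reads were counted.

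The balance of both isoforms within a sample was looked at after their values had been seen and is a description with no test. Slc25a5 stood at 181, 225 and 246 per 100 of Slc25a4 in Larp7-/- hearts, against 173, 141 and 139 in Larp7+/+ hearts. In the adult it stood at 6.20 and 5.44 per 100 in mCKO samples, against 3.54 and 4.19 in CTR samples. The proportion was higher without overlap in Larp7-/- than in Larp7+/+ hearts and in mCKO than in CTR samples. At E15.5 the separation came with lower Slc25a4 values, and in the adult with higher Slc25a5 and lower Slc25a4 values. Slc25a31, the isoform of the testis, had values of 2, 1 and 2 in Larp7-/- hearts, against 2, 2 and 1 in Larp7+/+ hearts, and was at 1 or 0 in the adult samples, where it was not tested.

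**Figure D2:**
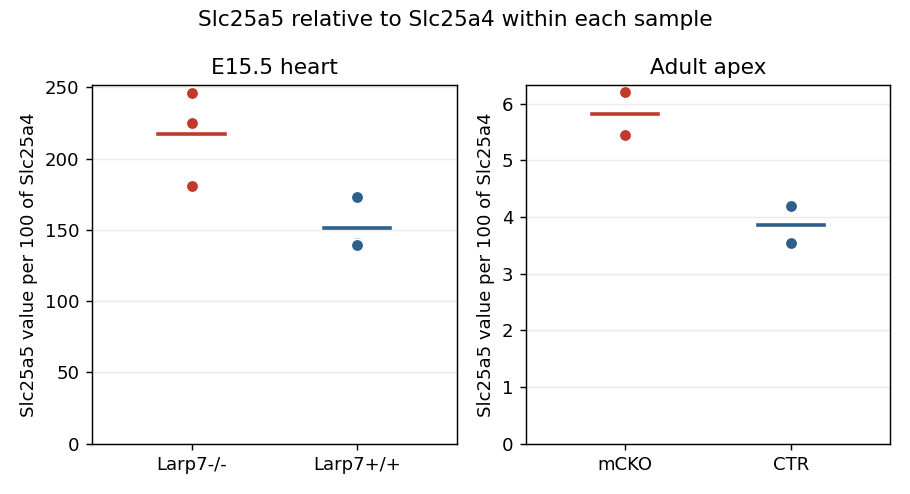
Slc25a5 value per 100 of Slc25a4 in each sample (points) with the group mean (lines), for Larp7-/- and Larp7+/+ hearts at E15.5 and for mCKO and CTR apex, on separate axes that start at 0. The Larp7-/- samples lie between 181 and 246 and the Larp7+/+ samples between 139 and 173, and the mCKO samples lie above the CTR samples.

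Slc25a3 encodes the carrier that brings phosphate into the matrix for ATP synthesis and also copper, on chromosome 10 from 91116574 to 91124059 on the minus strand. Its values were 1166, 1142 and 1147 in Larp7-/- hearts, against 1256, 1282 and 1276 in Larp7+/+ hearts. Adult values were 1594 and 1637 in mCKO samples, against 1784 and 1740 in CTR samples. The groups did not overlap in either model, yet the differences were small and did not pass limma (E15.5 log2 change -0.14, SE 0.18, adjusted p = 0.76, and adult -0.13, SE 0.13, adjusted p = 0.868).

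The calcium-regulated ATP-Mg/phosphate carriers, which adjust the adenine nucleotide pool of the matrix, showed no call in limma in either model. Slc25a23 had values of 69, 79 and 61 in Larp7-/- hearts, against 78, 68 and 86 in Larp7+/+ hearts, and 74 and 62 in mCKO samples, against 62 and 74 in CTR samples. These groups overlapped at both ages. Slc25a24 had values of 60, 54 and 62 in Larp7-/- hearts, against 51, 58 and 48 in Larp7+/+ hearts, and 13 and 15 in mCKO samples, against 12 and 10 in CTR samples. Slc25a25 had values of 29, 24 and 25 in Larp7-/- hearts, against 16, 21 and 20 in Larp7+/+ hearts. Slc25a24 overlapped at E15.5 and was higher without overlap in the adult, while Slc25a25 was higher without overlap at E15.5 (log2 change 0.44, SE 0.20, limma adjusted p = 0.309, unadjusted p = 0.0352) and overlapped in the adult (12 and 12 in mCKO, 13 and 12 in CTR). Without either number 1 sample the E15.5 change of Slc25a25 was 0.25. Exons of Slc25a25 share 379 bases with Naif1 on the opposite strand, and the sources used here do not say whether counting used strand.

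In the malate-aspartate shuttle the oxoglutarate-malate carrier Slc25a11 had close values within groups. It lies on chromosome 11 from 70644196 to 70647479 on the minus strand, and 189 bases of its exons overlap Rnf167 on the opposite strand. Slc25a11 had values of 336, 343 and 337 in Larp7-/- hearts, against 411, 404 and 410 in Larp7+/+ hearts. Adult values were 454 and 452 in mCKO samples, against 567 and 570 in CTR samples. The groups were far apart against their own spread in both models. Because of the fixed totals that spread holds nothing that same-numbered samples share, so it does not measure the precision of the values. With spread pooled over genes neither difference passed limma (log2 change -0.27, SE 0.17, adjusted p = 0.499 at E15.5, and -0.33, SE 0.14, adjusted p = 0.238 in the adult). Without the replicate block the adult difference passed (limma adjusted p = 0.0468). The authors' deposited table gives unadjusted p-values of 0.0201 at E15.5, with an adjusted p of 0.240, and 0.0117 in the adult.

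The aspartate-glutamate carriers, its partners in the shuttle, passed limma in neither model. Slc25a12, the isoform of heart, skeletal muscle and brain, had values of 145, 152 and 135 in Larp7-/- hearts, against 145, 137 and 154 in Larp7+/+ hearts. The adult apex gave 202 and 192 in mCKO samples, against 222 and 232 in CTR samples. Slc25a12 overlapped at E15.5 and was lower without overlap in the adult (log2 change -0.20, SE 0.14, limma adjusted p = 0.667). Slc25a13, citrin, the isoform best known from liver, had values of 102, 122 and 123 in Larp7-/- hearts, against 121, 100 and 99 in Larp7+/+ hearts. The adult apex gave 139 and 141 in mCKO samples, against 136 and 135 in CTR samples. Slc25a13 overlapped at E15.5 and was marginally higher in the adult without overlap (log2 change 0.05, SE 0.15, limma adjusted p = 0.98), a sign that turned with median-of-ratios scaling (-0.02).

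The enzymes that work with these carriers had negative changes in both models. Got1, Got2, Mdh1 and Mdh2, the transaminases and malate dehydrogenases of cytosol and matrix, had negative log2 changes without overlap in 4 of 4 at E15.5 and in 4 of 4 in the adult, against 15.7% and 26.7% of all tested genes with a mean of at least 50. Their median changes were -0.19 and -0.24, and 0 of them was called in limma (0 and 1 with an unadjusted p under 0.05). Got1, the cytosolic aspartate transaminase, had values of 219, 231 and 198 in Larp7-/- hearts, against 263, 251 and 285 in Larp7+/+ hearts, and 766 and 782 in mCKO samples, against 1036 and 1020 in CTR samples. Its adult difference was the largest of the list (log2 change -0.41, SE 0.14, limma adjusted p = 0.0739), and it passed without the replicate block (limma adjusted p = 0.032), with a mean of at least 10 required (0.0392) and with median-of-ratios scaling (0.0198). Mdh1, the cytosolic malate dehydrogenase, had values of 1372, 1460 and 1378 in Larp7-/- hearts, against 1650, 1561 and 1644 in Larp7+/+ hearts, and 1844 and 1770 in mCKO samples, against 1992 and 2066 in CTR samples. In the matrix Got2 lay between 456 and 462 in Larp7-/- hearts, against 513 to 520 in Larp7+/+ hearts, and Mdh2 between 1197 and 1285 in Larp7-/- hearts, against 1325 to 1412 in Larp7+/+ hearts. All 4 sets of E15.5 values separated by group, as did the adult values of Got2 (446 and 453 in mCKO, 537 and 529 in CTR) and Mdh2 (1205 and 1132 in mCKO, 1337 and 1409 in CTR).

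Slc25a22, a glutamate carrier, was the E15.5 member with the lowest unadjusted p. Its values were 26, 33 and 33 in Larp7-/- hearts, against 25, 17 and 18 in Larp7+/+ hearts. The groups did not overlap, with sample 1 of Larp7-/- next to sample 1 of Larp7+/+ (log2 change 0.60, SE 0.20, limma adjusted p = 0.158, unadjusted p = 0.00547). In the adult Slc25a22 had values of 43 and 40 in mCKO samples, against 39 and 43 in CTR samples, which overlapped (log2 change 0.02, or -0.04 with median-of-ratios scaling). Slc25a18, the other glutamate carrier, was at 0 or 1 in every sample and was not tested.

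The citrate and dicarboxylate carriers, which export matrix citrate and exchange dicarboxylates for phosphate, gave 0 calls in limma in either model. Slc25a1, the citrate carrier, was listed in the adult and had values of 9 and 9 in mCKO samples, against 5 and 5 in CTR samples (log2 change 0.74, SE 0.28, limma adjusted p = 0.16). Slc25a10 had values of 41, 44 and 41 in Larp7-/- hearts, against 41, 38 and 42 in Larp7+/+ hearts, and 16 and 17 in mCKO samples, against 14 and 13 in CTR samples. Both were higher without overlap in mCKO samples and neither passed the test, while Slc25a10 overlapped at E15.5. Slc25a21, the oxodicarboxylate carrier, was at 0 or 1 in the adult.

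Slc25a20, the carnitine-acylcarnitine carrier, lies on chromosome 9 from 108662088 to 108684641 on the plus strand. Its values were 107, 121 and 102 in Larp7-/- hearts, against 108, 93 and 112 in Larp7+/+ hearts. Its adult values were 134 and 127 in mCKO samples, against 154 and 162 in CTR samples. The groups overlapped at E15.5 and were lower without overlap in mCKO samples (log2 change -0.27, SE 0.15, limma adjusted p = 0.437). In the adult the carnitine transferases beside it gave 2 calls among 4, where 3.29% of all tested genes were called (0.95% lower). Their list was chosen with earlier results known. Cpt2, the inner membrane carnitine palmitoyltransferase, fell, with values of 154 and 165 in mCKO samples, against 242 and 230 in CTR samples (log2 change -0.56, SE 0.14, limma adjusted p = 0.00608). Crat, carnitine acetyltransferase, also fell, with values of 383 and 340 in mCKO samples, against 502 and 545 in CTR samples (log2 change -0.53, SE 0.14, limma adjusted p = 0.00874). For both genes the mCKO samples lay below the CTR samples, and both calls were lost with no rounding variance (limma adjusted p = 0.424 for Cpt2 and 0.587 for Crat). Cpt1a and Cpt1b overlapped in the adult, and at E15.5 the 3 measured enzymes, Cpt1b, Cpt2 and Crat, overlapped between groups with 0 called in limma and 0 at an unadjusted p under 0.05.

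**Figure D3:**
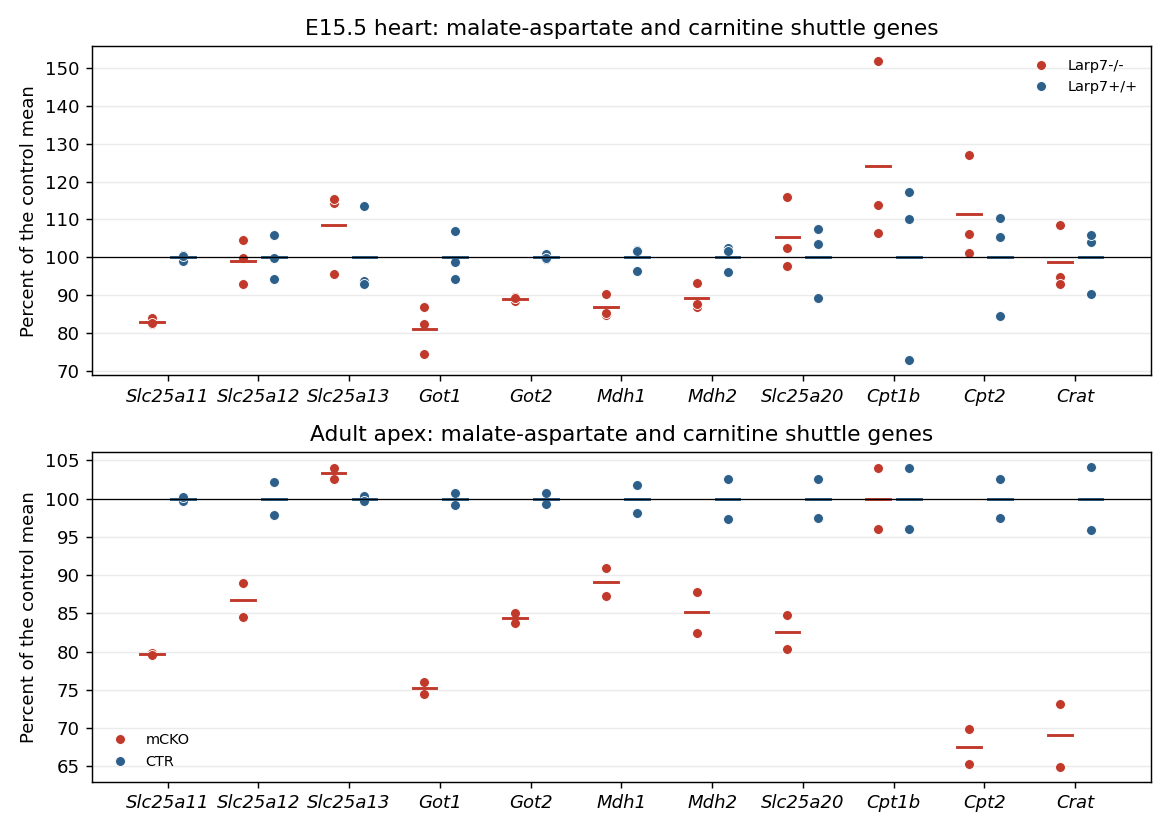
Values of the malate-aspartate and carnitine shuttle genes as percent of the mean of Larp7+/+ hearts (top) or of CTR apex (bottom), with 1 point per sample and lines at group means, on axes that do not start at 0. Slc25a11, Got1, Got2, Mdh1 and Mdh2 lie below all control points in both panels, and Cpt2 and Crat do so in the adult panel.

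The amino acid carriers showed no call in limma. Slc25a44, which brings branched-chain amino acids into mitochondria, had values of 66, 69 and 61 in Larp7-/- hearts, against 61, 59 and 67 in Larp7+/+ hearts, and 28 and 26 in mCKO samples, against 24 and 26 in CTR samples. Slc25a15, the ornithine carrier, had values of 43, 51 and 37 in Larp7-/- hearts, against 34, 26 and 40 in Larp7+/+ hearts (log2 change 0.39, SE 0.19, limma adjusted p = 0.369). Both overlapped between groups, and the Slc25a15 change was 0.11 without either number 2 sample and 0.64 without either number 3 sample. Slc25a38, the glycine carrier needed for haem synthesis, overlapped at E15.5 and had values of 20 and 22 in mCKO samples, against 25 and 24 in CTR samples, lower without overlap. Slc25a29, a carrier of basic amino acids, was between 4 and 7 at E15.5, with overlap, and had values of 12 and 14 in mCKO samples, against 11 and 9 in CTR samples, higher without overlap (log2 change 0.35, SE 0.23, limma adjusted p = 0.603). Slc25a2, a second ornithine carrier, was listed at E15.5 alone, at 1 or 2.

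Among iron and glutathione carriers Slc25a39, which imports glutathione, had values of 335, 319 and 341 in Larp7-/- hearts, against 347, 363 and 341 in Larp7+/+ hearts. Its adult values were 154 and 165 in mCKO samples, against 148 and 136 in CTR samples. These groups met at 341 at E15.5 and were higher without overlap in mCKO samples (log2 change 0.17, SE 0.15, limma adjusted p = 0.782). Slc25a40, its close relative, had values of 9, 11 and 6 in Larp7-/- hearts, against 13, 10 and 15 in Larp7+/+ hearts (log2 change -0.52, SE 0.26, limma adjusted p = 0.378), with overlap. Its change was -0.84 without either number 2 sample and -0.18 without either number 3 sample. Slc25a37, the iron importer mitoferrin of red cell precursors, had values of 57, 87 and 87 in Larp7-/- hearts, against 97, 67 and 66 in Larp7+/+ hearts. Sample 1 was the low one in Larp7-/- and the high one in Larp7+/+, so that the mean change was 0.00 (SE 0.23), while erythroid Alas2 had values of 88, 110 and 159 in Larp7-/- hearts, against 128, 107 and 57 in Larp7+/+ hearts. In the adult Slc25a37 overlapped (27 and 32 in mCKO, 29 and 22 in CTR), and Slc25a28, the mitoferrin of other tissues, was at 26 and 26 in mCKO samples, against 28 and 28 in CTR samples.

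The cofactor carriers contained Slc25a42, which brings coenzyme A into mitochondria and lies on chromosome 8 from 70184340 to 70212305 on the minus strand. Its values were 22, 24 and 15 in Larp7-/- hearts, against 18, 17 and 26 in Larp7+/+ hearts. Its adult values were 56 and 63 in mCKO samples, against 83 and 75 in CTR samples. The groups overlapped at E15.5 and were lower without overlap in mCKO samples (log2 change -0.40, SE 0.15, limma adjusted p = 0.129, unadjusted p = 0.00655). With median-of-ratios scaling the adult difference passed (limma adjusted p = 0.0311), and without either number 1 sample its log2 change was -0.25, a value that allows no test.

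The carriers of other cofactors and of nucleotides did not pass limma. Slc25a51, which imports NAD, had values of 181, 195 and 178 in Larp7-/- hearts, against 201, 186 and 204 in Larp7+/+ hearts, and 61 and 60 in mCKO samples, against 66 and 68 in CTR samples. Its groups did not overlap in the adult, with the mCKO samples lower (log2 change -0.14, SE 0.15, limma adjusted p = 0.854), and they overlapped at E15.5. Slc25a36, a pyrimidine nucleotide carrier, had values of 389, 518 and 414 in Larp7-/- hearts, against 409, 281 and 385 in Larp7+/+ hearts, and 46 and 48 in mCKO samples, against 46 and 42 in CTR samples. Sample 2 was the high one in Larp7-/- and the low one in Larp7+/+, the groups overlapped, and the E15.5 log2 change was 0.30 (SE 0.19, limma adjusted p = 0.499), or 0.02 without either number 2 sample and 0.49 without either number 1 sample. Slc25a16, Slc25a17, Slc25a26, Slc25a32 and Slc25a33, carriers of nucleotides and cofactors, had values of 30 or less in every sample in which they were listed, and of these Slc25a26, the carrier of S-adenosylmethionine, was lower without overlap in the adult (24 and 24 in mCKO, 26 and 26 in CTR).

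Slc25a34, a carrier whose substrate is not settled, was the member that fell in the adult. It lies on chromosome 4 from 141618824 to 141623821 on the minus strand. It had values of 95 and 124 in mCKO samples, against 178 and 148 in CTR samples, with means of 109.5 ± 20.5 in mCKO and 163 ± 21.2 in CTR samples (SD, n = 2 each). Both mCKO samples were below both CTR samples, and the samples numbered 1 were the farthest apart (log2 change -0.58, SE 0.15, limma adjusted p = 0.00517, 95% interval -0.86 to -0.29). Without either number 1 sample the change was -0.25, and without either number 2 sample -0.90, values that allow no test. Both lie outside the 95% interval, which like the SE and p-value rests almost wholly on spread pooled over genes and not on that of Slc25a34. The call was lost without the replicate block (limma adjusted p = 0.117) and with no rounding variance (limma adjusted p = 0.62). In the authors' deposited table its log2 fold change is -0.64 (unadjusted p = 0.0298). At E15.5 Slc25a34 was between 0 and 4 in every sample.

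Slc25a46, an outer membrane protein that acts on mitochondrial shape and not on transport, was listed in the adult and had values of 72 and 74 in mCKO samples, against 68 and 66 in CTR samples. It was higher without overlap (log2 change 0.12, SE 0.15, limma adjusted p = 0.877). The carriers of uncoupling protein type, Slc25a14, Slc25a27 and Slc25a30, had positive changes in 3 of 3 in the adult with summed values of 20 to 24 in mCKO samples and 17 to 21 in CTR samples, and 0 passed limma (0 at an unadjusted p under 0.05). Slc25a35, Slc25a43, Slc25a45, Slc25a47 and Slc25a53, whose substrates are not settled, were at 28 or less in every sample in which they were listed and none was called.

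**Figure D4:**
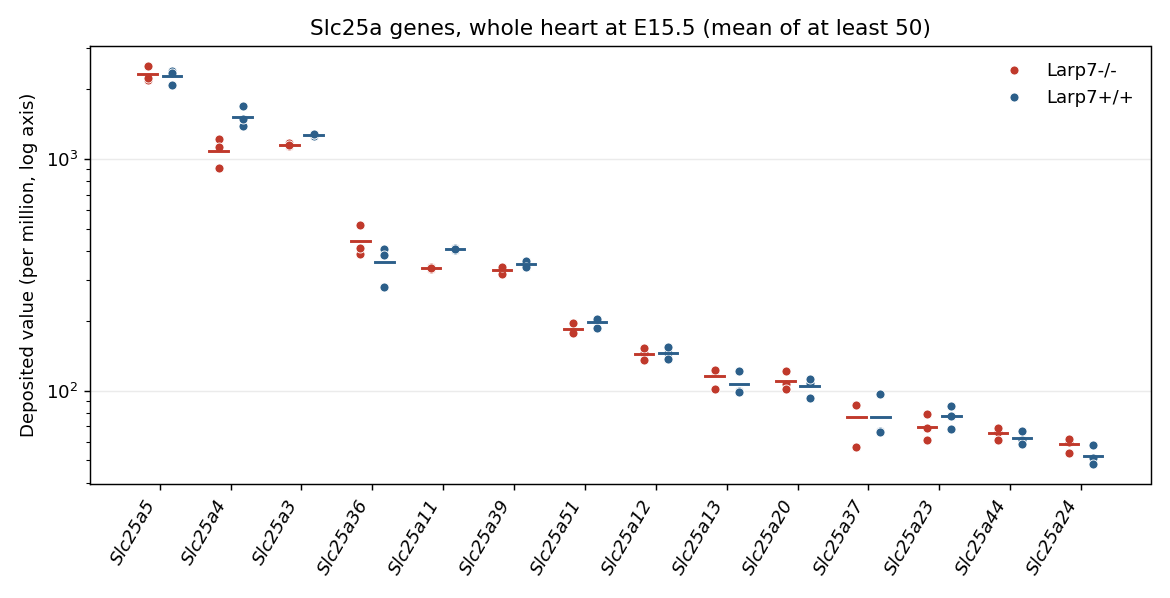
Deposited per-million values (log axis) of Slc25a genes with a mean of at least 50 at E15.5, in Larp7-/- and Larp7+/+ hearts, with 1 point per sample and lines at group means, and genes ordered by mean. Slc25a4, Slc25a3 and Slc25a11 separate by group, with Slc25a4 at 911 to 1213 in Larp7-/- and 1388 to 1691 in Larp7+/+.

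**Figure D5:**
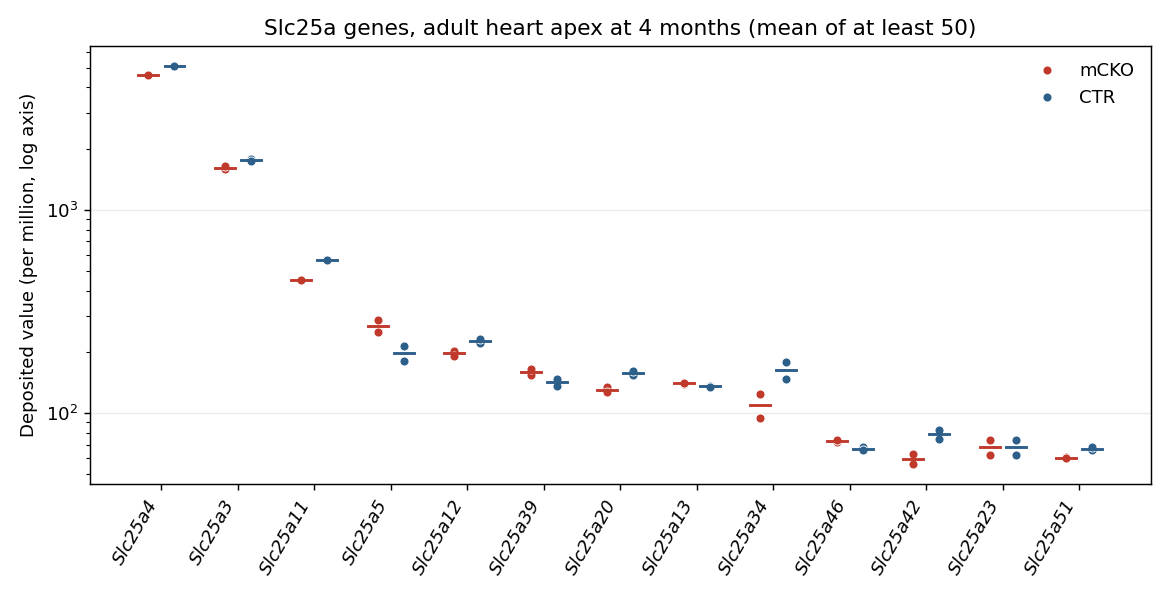
Deposited per-million values (log axis) of the 13 Slc25a genes with a mean of at least 50 in the adult apex, in mCKO and CTR samples, with 1 point per sample and lines at group means, and genes ordered by mean. All but Slc25a23 separate by group, where 26.7% of all tested genes of that level separate as lower and 35.6% as higher. Slc25a34 lies at 95 and 124 in mCKO against 178 and 148 in CTR.

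Genes outside the symbol rule that also serve mitochondrial transport were followed from lists chosen with earlier results known. The outer membrane channel Vdac1 had values of 682, 611 and 661 in Larp7-/- hearts, against 764, 835 and 785 in Larp7+/+ hearts, and 885 and 833 in mCKO samples, against 1012 and 1064 in CTR samples. It was lower without overlap in both models and passed in neither (log2 change -0.29, SE 0.18, limma adjusted p = 0.495 and -0.27, SE 0.14, limma adjusted p = 0.386). Of the other porins, Vdac3 overlapped at E15.5 and had values of 150 and 154 in mCKO samples, against 172 and 167 in CTR samples. Vdac2, listed in the adult, went the other way, with values of 469 and 478 in mCKO samples, against 412 and 404 in CTR samples (log2 change 0.21, SE 0.14, limma adjusted p = 0.617). Of the pyruvate carrier, Mpc2 had values of 106, 86 and 95 in Larp7-/- hearts, against 128, 148 and 139 in Larp7+/+ hearts (log2 change -0.53, SE 0.16, limma adjusted p = 0.126), and 306 and 301 in mCKO samples, against 330 and 335 in CTR samples. The E15.5 difference of Mpc2 passed without the replicate block (limma adjusted p = 0.0388) and with no filter on low values (0.0449). Mpc1 overlapped at E15.5 (178, 160 and 203 in Larp7-/-, 227, 245 and 202 in Larp7+/+) and was at 52 and 52 in mCKO samples, against 50 and 50 in CTR samples. Mpc2 was thus lower without overlap at both ages, and Mpc1 was not.

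The import machinery of the carriers themselves gave 0 calls in limma in either model. Timm22, the channel that inserts carriers into the inner membrane, and its small chaperones Timm10 and Timm10b were lower without overlap at E15.5 in 3 of 3 measured genes, against 8.75% of all tested genes, with Timm10 at 34, 33 and 34 in Larp7-/- hearts, against 45, 46 and 45 in Larp7+/+ hearts (log2 change -0.42, SE 0.17, limma adjusted p = 0.252, or 0.0273 without the replicate block). In the adult Timm10 had values of 59 and 61 in mCKO samples, against 49 and 47 in CTR samples, and the 5 measured genes of the list gave 3 positive changes and 1 negative. Whether the list differed between the models was not tested. Mtch2, a carrier relative of the outer membrane, had values of 217, 225 and 225 in Larp7-/- hearts, against 262, 254 and 253 in Larp7+/+ hearts, and 142 and 142 in mCKO samples, against 136 and 135 in CTR samples. Ucp2, an uncoupling protein relative, had values of 197 and 278 in mCKO samples, against 148 and 66 in CTR samples, without overlap and with a wide error (log2 change 1.23, SE 0.80, limma adjusted p = 0.869), and its change was 0.41 without either number 2 sample and 2.06 without either number 1 sample.

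The remaining lists gave 0 calls in limma in either model. Calcium uniporter and exchanger genes were positive in 4 of 6 at E15.5 (2 with an unadjusted p under 0.05) and in 6 of 9 in the adult (0 so). Sideroflexins, which include the serine carrier, were positive in 1 of 2 and 3 of 5 (0 at an unadjusted p under 0.05 in both). Inner membrane ABC transporters were positive in 2 of 4 and 0 of 4. In that list 1 gene had an unadjusted p under 0.05 at E15.5 and 0 genes in the adult samples. Over all tested genes such a p was found in 1893 of 13609 at E15.5 and in 1833 of 14835 in the adult.

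The control levels of several carriers differed widely between adult apex and embryonic heart. The tables were scaled separately and differ in tissue sampled, so these differences were not tested. Slc25a34 averaged 163 ± 21.2 in CTR apex (SD, n = 2) and 1.33 ± 1.15 in Larp7+/+ embryonic hearts (SD, n = 3). Slc25a4 averaged 5098 ± 16.97 in CTR apex and 1520 ± 155 in Larp7+/+ hearts, while Slc25a5 averaged 197 ± 24.0 in CTR apex and 2282 ± 175 in Larp7+/+ hearts. The muscle isoform of the ADP/ATP carrier thus stood higher, and its paralog lower, in the adult control than in the embryonic one. Slc25a42 averaged 79 ± 5.66 in CTR apex and 20.3 ± 4.93 in Larp7+/+ hearts. Slc25a36 averaged 44 ± 2.83 in CTR apex and 358.3 ± 68.0 in Larp7+/+ hearts, and Slc25a24 averaged 11 ± 1.41 in CTR apex and 52.3 ± 5.13 in Larp7+/+ hearts.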

How the data were processed

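Total RNA from whole embryonic hearts or adult apex was isolated with a column kit and DNase digestion before standard Illumina library preparation, per the labels' protocols. HISAT2, HTSeq and the build mm10 are named, without versions, per the submitters' processing notes. The authors deposited a score per gene and sample, which is a per-million value rounded to whole numbers, and the sources used here do not say how it was scaled and adjusted. Log2 fold changes and p-values of the authors stand in the same deposited tables, in columns named in the manner of DESeq2. Depth is lost, so no counting interval is given.

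Same-numbered values of both groups add to a fixed total within 2 in 8328 of 8366 E15.5 genes and 8642 of 8658 adult genes with a mean of at least 10. Deviations of same-numbered samples are thus mirror images (correlations across genes of -0.82 to -0.80 at E15.5 and -0.81 in the adult), which comes from the values, since the labels state no pairing. This leaves 2 residual degrees of freedom per embryonic gene and 1 per adult gene. Each table was fitted alone on log2(value + 1) with limma 3.58.1 (R 4.3.3), with the replicate number as a block, a rounding variance of 0.0833 on the scale of the values, and eBayes with trend and robust options, which pools spread over genes. For the median adult gene SE and p-value rest wholly on the pooled spread. On simulated data the fit returned the directions and sizes of changes, but where spread differed between genes more calls were false than the nominal share. Alternatives were no block, no rounding variance, a pseudocount of 5, other filters, median-of-ratios scaling and leaving out each sample. The study's samples were grouped by their titles, and 0 columns of sample values were left unused.

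The members and lists, and the choice of fit, were made with earlier results of these data known. Named with values are Larp7, called members, and members with a mean of at least 50 in either table, apart from 1 such member that is counted but not reported here by name. Other members appear by range, or by name where a functional group turns on them. Marker lists covered cardiomyocyte, endothelial, fibroblast, erythroid, macrophage, smooth muscle and pericyte, adipocyte, brown adipocyte and stratified epithelium genes. Gene positions are from GENCODE M21 on mm10, and promoter windows from RefSeq on GRCm38.p6.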

Additional observations from a re-analysis of the deposited data

How the results depend on the processing

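At E15.5, 72 genes were higher and 14 lower over all tested genes. The counts were 430 and 174 with no replicate block, 195 and 37 with a pseudocount of 5, 480 and 121 with no filter on low values, and 12 and 7 with median-of-ratios scaling. They were 0 and 0 with no rounding variance, the replicate block kept (limma, 1422 at an unadjusted p under 0.05) and 0 and 0 with a mean of at least 10 (limma, 1100 so). Leaving out each sample in turn gave 171 to 422 higher and 40 to 87 lower. In the adult 347 were higher and 141 lower, against 833 and 297 with no rounding variance and 286 and 210 with median-of-ratios scaling.

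Among the Slc25a genes at E15.5 the count of lower calls was 0 and ranged from 0 to 1 when samples were left out, with Slc25a4 called without either number 2 sample. Without the replicate block 0 were called at E15.5, and in the adult Slc25a11 was called in place of Slc25a34. With no rounding variance 2 adult members were higher, Slc25a1 and Slc25a14, and 2 lower, Slc25a26 and Slc25a28. With a mean of at least 10 there was 1 higher, Slc25a5, beside Slc25a34. With median-of-ratios scaling 2 were lower, Slc25a34 and Slc25a42, and 23 of 39 changes were negative in place of 15. For genes outside the family, leaving out the block added calls for Mpc2 and Timm10 at E15.5 and Got1 in the adult, and removed those of Myh7, Fcgr1 and Krt18 (limma adjusted p = 0.118, 0.157 and 0.0741). It changed no other call of the named genes that were followed through the alternatives. Got2, Mdh1, Mdh2, Mpc1, Mtch2, Vdac2, Vdac3 and Timm22 were not followed there. With no rounding variance the calls of Myh7, Fcgr1, Krt18, Larp7, Pdgfra, Rgs5, Cpt2 and Crat were lost (limma adjusted p between 0.424 and 0.62). With a mean of at least 10 those of Larp7, Pdgfra and Rgs5 were lost (limma adjusted p = 0.332), and with median-of-ratios scaling that of Pdgfra (0.0755).

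Signs turned only in named genes that were not called. With median-of-ratios scaling the log2 change at E15.5 was -0.040 for Slc25a5 and -0.061 for Slc25a37, and in the adult -0.015 for Slc25a13 and -0.043 for Slc25a22. Leaving out samples at E15.5 gave -0.094 to 0.074 for Slc25a12, -0.073 to 0.18 for Slc25a20, -0.33 to 0.019 for Slc25a23, -0.19 to 0.38 for Slc25a37, -0.24 to 0.37 for Slc25a42, -0.011 to 0.17 for Slc25a44 and -0.10 to 0.10 for Slc25a5. With the block, leaving out a sample also removes its same-numbered partner. In the adult this left no residual degrees of freedom, so that values there carry no test. Adult fits without a sample were therefore sorted by the size of the shift, so that no count of kept cases is given. Sign turns of uncalled genes in those fits were not counted. At E15.5, leaving out either sample of a number gave the same log2 change. Both fits were counted in the cases that follow, which are therefore not independent. Over the named genes refitted at E15.5, direction and side of the threshold were kept in 287 cases. The sign turned in 18, a call was gained in 5 and a call was lost in 13. For most of these changes the cause was not tested. The rounding of values limits members below about 10, where 1 unit is a large part of the value.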
